A study of Mus musculus with 3 samples.

Results

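Strong regions of H3K27 acetylation in vehicle-treated cells that had no called interval after treatment with the inhibitor numbered 1309 of the 22399 regions in the series. A region was taken when its average signal with vehicle was at least 25, an interval was called in the vehicle library and none in the inhibitor library, and its length was under 5000 bp. Signal is fragment pileup, the number of sequenced fragments lying over a position, as the authors deposited it. The regions within the same limits in which an interval was called in the inhibitor library too, 1288 in number, served as the comparison. The members were thus selected on the signals and calls of these 2 libraries, so signal differences between members and comparison regions are given as descriptions, with no test.

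The cells were myeloid-derived suppressor cells (MDSC), sorted from tumours by CD45, CD11b and Ly6C positivity and lack of F4/80, whether or not they carried Ly6G. Tumours were grown under the skin of female SCID.beige mice, 6 to 8 weeks old, from an injection of tumour cells in matrigel, and the host strain lacks T and B cells and has impaired natural killer cells. The labels name the human breast cancer derivative MDA-MB-231-X1.1 and the mouse colon carcinoma CT26, and both immunoprecipitated libraries carry TNBC in their titles. From a tumour volume of 150 to 200 mm3, mice received for 7 days either the MCT vehicle or 25 mg/kg of GNE-781, an inhibitor of the CBP/EP300 bromodomain, by oral gavage at the same schedule of 2 doses a day. There was 1 library for each treatment, the number of mice behind a library is not stated, and the pooled input was not used here. With no replicates, every value below is a single measurement, and the depth of the libraries is unknown.

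Acetylation of lysine 27 of histone H3 (H3K27ac) marks nucleosomes beside active promoters and enhancers. CBP and EP300 are the acetyltransferases that place most of it, and their bromodomain binds acetylated lysine. At an active promoter the start site itself is depleted of nucleosomes, and acetylated nucleosomes lie on both sides of it. Interval callers such as SICER join neighbouring enriched windows, so the extent of a signal as well as its height enters a call. In myeloid cells the mark is known at housekeeping promoters, most of them in CpG islands, and at enhancers bound by factors such as PU.1 and C/EBP.

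The promoters of 6 genes with members show stretches at or beside such regions. Each line holds the 250 bases before the start of the gene in RefSeq (GRCm38.p6), and capitals mark letters that match a searched motif on either strand. Itm2b and Tia1 were among the strongest members with vehicle, Eif3j1, Ndufa10 and Ncoa1 among those with the lowest inhibitor to vehicle ratio, and Mef2a had a member on one side of its start and a comparison region on the other. The genes were chosen after their values were seen.
Itm2b: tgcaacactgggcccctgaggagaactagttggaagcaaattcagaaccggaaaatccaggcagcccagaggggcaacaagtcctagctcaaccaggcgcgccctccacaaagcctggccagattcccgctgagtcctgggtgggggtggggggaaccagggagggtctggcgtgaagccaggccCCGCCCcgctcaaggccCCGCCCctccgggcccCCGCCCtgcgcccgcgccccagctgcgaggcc
Tia1: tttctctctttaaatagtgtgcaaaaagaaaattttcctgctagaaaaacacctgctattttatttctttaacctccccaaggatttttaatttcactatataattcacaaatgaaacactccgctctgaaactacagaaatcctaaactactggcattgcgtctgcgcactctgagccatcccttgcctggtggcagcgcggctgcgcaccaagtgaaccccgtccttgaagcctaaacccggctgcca
Eif3j1: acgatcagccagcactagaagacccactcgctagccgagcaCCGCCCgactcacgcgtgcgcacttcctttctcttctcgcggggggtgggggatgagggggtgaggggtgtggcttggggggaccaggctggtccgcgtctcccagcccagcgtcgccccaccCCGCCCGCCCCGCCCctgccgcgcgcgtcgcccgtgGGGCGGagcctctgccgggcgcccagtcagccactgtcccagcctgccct
Ndufa10: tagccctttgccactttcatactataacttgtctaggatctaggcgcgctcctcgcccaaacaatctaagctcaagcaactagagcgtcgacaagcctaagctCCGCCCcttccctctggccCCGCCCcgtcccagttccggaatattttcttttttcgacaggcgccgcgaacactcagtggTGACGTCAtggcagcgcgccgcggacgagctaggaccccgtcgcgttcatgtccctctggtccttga
Ncoa1: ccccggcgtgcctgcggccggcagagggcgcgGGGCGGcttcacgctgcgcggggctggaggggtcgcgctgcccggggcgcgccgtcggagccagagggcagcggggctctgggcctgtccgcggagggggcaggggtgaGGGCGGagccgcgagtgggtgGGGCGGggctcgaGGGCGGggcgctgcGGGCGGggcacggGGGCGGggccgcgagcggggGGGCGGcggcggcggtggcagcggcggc
Mef2a: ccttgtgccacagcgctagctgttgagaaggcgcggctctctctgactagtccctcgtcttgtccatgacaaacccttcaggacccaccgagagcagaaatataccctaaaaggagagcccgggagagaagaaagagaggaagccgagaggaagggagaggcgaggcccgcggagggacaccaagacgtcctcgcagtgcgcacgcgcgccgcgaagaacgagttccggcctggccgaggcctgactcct
These lie at chr14:73385290-73385539 on the minus strand (Itm2b), chr6:86403969-86404218 on the plus strand (Tia1), chr2:122028330-122028579 on the plus strand (Eif3j1), chr1:92473759-92474008 on the minus strand (Ndufa10), chr12:4477183-4477432 on the minus strand (Ncoa1) and chr7:67372859-67373108 on the minus strand (Mef2a). GGGCGG or its reverse complement, the core of SP and KLF sites, occurs 3 times at Itm2b, 5 times at Eif3j1, 2 times at Ndufa10 and 7 times at Ncoa1. Ndufa10 also holds the cAMP response element TGACGTCA. None of the 15 searched motifs lies in the stretch of Tia1 or of Mef2a, and GC content ranged from 44.0% at Tia1 to 85.6% at Ncoa1. Of the 250 bases, 79 lie inside the member at Eif3j1 and 51 at Ncoa1, and the whole stretch at the others. For contrast, Rps6 is the promoter of a comparison region whose inhibitor signal was among the lowest of those called (chr4:86857368-86857617, minus strand), and it holds an ETS motif (CCGGAAG), the palindrome of ZBTB33 and a TGACG core.
Rps6: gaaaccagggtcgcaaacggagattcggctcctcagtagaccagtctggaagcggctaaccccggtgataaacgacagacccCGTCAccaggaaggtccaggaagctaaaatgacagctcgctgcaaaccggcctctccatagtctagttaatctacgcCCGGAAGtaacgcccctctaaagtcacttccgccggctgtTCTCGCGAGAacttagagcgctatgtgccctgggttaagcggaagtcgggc

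Signal was lower with inhibitor in all members, as it was nearly everywhere. In these sorted bulk samples, fewer cells of a type and less acetylation per cell cannot be told apart. The average signal with vehicle ran from 25.0 to 48.1 over the members with a median of 28.3, and with inhibitor from 2.10 to 9.49 with a median of 6.02. The log2 difference, log2(inhibitor average + 1) minus log2(vehicle average + 1), had a median of -2.12 and ran from -3.17 to -1.44. The vehicle limit of 25 and the missing inhibitor call fix much of this separation. All 1309 members were at least 2-fold lower with inhibitor, and so were 93.4% of all regions in the series and all 1288 comparison regions. Recentred on the median of all regions, 35 members and 0.371% of all regions were. At least 4-fold lower were 884 members (67.5%), 579 comparison regions (45.0%) and 3470 of all regions (15.5%). A missing call with inhibitor was also the common state, at 90.1% of all regions called with vehicle and 50.4% of those within the limits of signal and length.

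Members and comparison regions differed by degree, and the ranges of their inhibitor signals overlapped, while the ranges between their quartiles did not. The upper quartile of the inhibitor average was 6.765 in members, below the lower quartile of 7.035 in comparison regions. For the inhibitor peak these quartiles were 16 and 19. The comparison regions had a median average of 33.3 with vehicle and 7.87 with inhibitor, and a median log2 difference of -1.97. The median peak, the highest pileup in a region, was 14 with inhibitor in members and 22 in comparison regions. Yet 935 members (71.4%) reached the lowest inhibitor peak of any comparison region, which was 13, and 1158 (88.5%) reached the lowest inhibitor average, 4.75. From the other side, 1061 comparison regions (82.4%) had an inhibitor average no higher than that of the highest member. That member was Sap130, a subunit of the SIN3A corepressor complex, at 41.7 with vehicle and 9.49 with inhibitor. The lowest comparison region lay at the start of March5, a mitochondrial ubiquitin ligase, at 28.9 and 4.75.

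**Figure D1:**
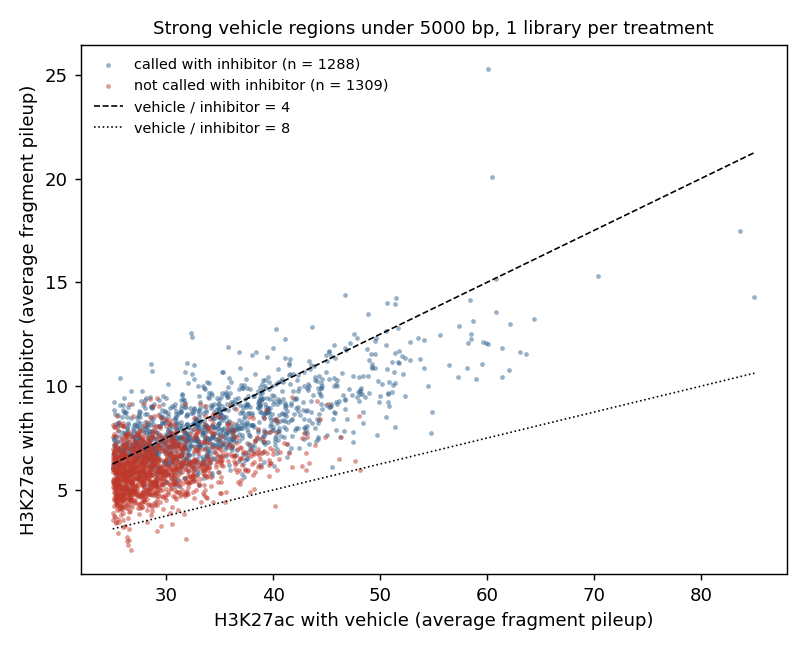
Average fragment pileup with vehicle (x axis) and with inhibitor (y axis) for the 2597 strong regions under 5000 bp, 1 library per treatment, with lines of constant ratio. Members (red) fill the lower left and lie among the comparison regions (blue) over much of their range, while no member has a vehicle average of 50 or more.

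The limits of the rule cut through a continuous range. Just inside the signal limit lay the regions at Smim15, at Iqcc and at Eya3, a phosphatase and transcriptional coactivator, all at 25.0 with vehicle, with 3.89, 6.00 and 6.05 with inhibitor. Just outside lay those at Mkln1 (24.985 with vehicle and 4.35 with inhibitor), near the let-7d, let-7f-1 and let-7a-1 cluster (24.983 and 7.155) and at Napg (24.979 and 5.70). Just inside the length limit were the regions between Safb2 and Safb at 4964 bp, at Ggt1 and Ggt5 at 4957 bp and at Vps37c at 4915 bp. Just outside it were Il6ra at 5015 bp, Anp32a at 5016 bp and Cln8 at 5022 bp. Regions at the signal limit and 5000 bp or longer went uncalled with inhibitor in 52 of 270 cases (19.3%).

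Strong regions of low vehicle signal or of short length lacked a call with inhibitor more often than high or long ones. Length is that of the deposited region. No member was merged from more than 1 interval, while comparison regions hold intervals called in both libraries, which can lengthen them. How much of the link with length comes from this was not tested. The share not called was 73.4% of 707 regions with a vehicle average of 25 to 27.5, 44.9% of 682 regions at 30 to 35 and 12.4% of 242 regions at 40 to 50. None of the 67 regions at 50 or more went uncalled. By length the share was 88.7% of 71 regions under 1000 bp, 57.1% of 729 regions at 1500 to 2000 bp and 33.3% of 174 regions at 4000 to 5000 bp. By length and signal at once the share ran from 86.9% of the 160 regions under 1500 bp with an average of 25 to 27.5 to 0 of 44 regions of 3000 to 5000 bp at 40 to 50. Signal and length are parts of the rule, so these shares describe the members and are not independent findings.

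**Figure D2:**
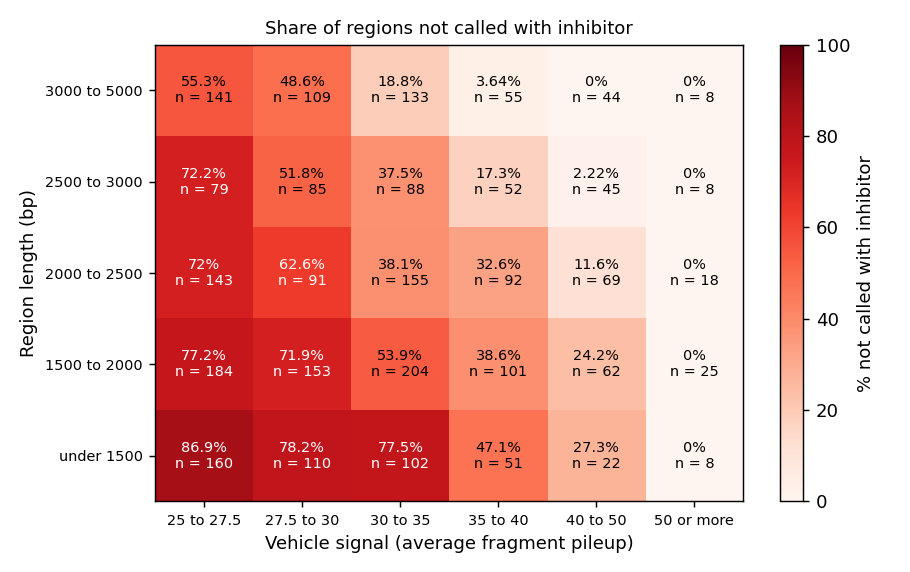
Grid of classes of vehicle average (x axis, fragment pileup) and of length (y axis, bp), where colour and label give the percent of strong regions without a called interval in the inhibitor library, with n regions per cell. The share is highest, 86.9%, for short regions just above the signal limit, and is 0 in the column at 50 or more.

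Members were shorter than comparison regions of like height, and had a lower ratio of peak to average. Members are single intervals, and comparison regions hold intervals of both libraries. The call that defines the sets can therefore enter both length and ratio, and its share in these differences was not tested. Their median length was 1878 bp, beside 2311 bp in the comparison regions and 2355 bp when these were weighted to the members' classes of vehicle signal. The vehicle peak was 2.54 times the average at the median in members and 2.78 times in comparison regions, or 2.70 times with these weighted to the members' length and signal. With the same weighting the median log2 difference of comparison regions was -1.85 and their median inhibitor average 7.36, beside -2.12 and 6.02 in members. Within the members the log2 difference was lower at stronger regions, with a median of -2.02 at a vehicle average of 25 to 27.5 and -2.42 at 40 to 50. The same held in comparison regions, with -1.78 and -2.12. The vehicle average is itself a term of the difference, and the missing call limits the inhibitor average of members. These orders are thus partly built in and are descriptions only.

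What the rule did not use is the annotation, and there members and comparison regions were much alike while both stood apart from the series as a whole. A promoter, taken by the authors as 7500 bp before to 2500 bp after a gene start, was overlapped by 90.5% of members and 91.8% of comparison regions, beside 51.9% of all regions. A CpG island was overlapped by 87.6%, 88.4% and 38.3%. A gene start lay within 1 kb of 84.7% of members, 81.4% of comparison regions and 37.9% of all regions. These shares of comparison regions moved to 91.0%, 88.4% and 82.3% when weighted to the members' length and signal, and no test was run since regions of 1 library are not replicates. The centre of a member lay downstream of its nearest start in 881 of 1109 cases (79.4%), the side of the first nucleosomes of the gene, and in 76.7% of comparison regions.

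**Figure D3:**
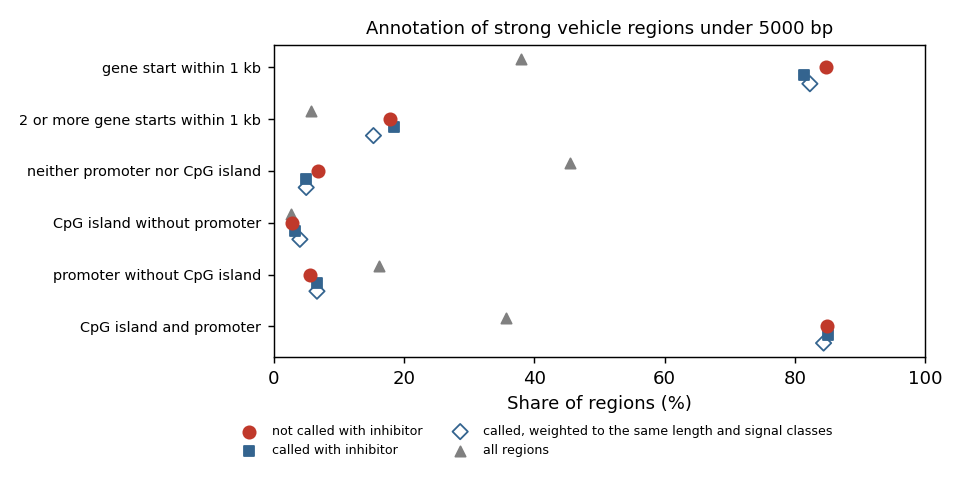
Share of regions with each annotation (percent) for members, comparison regions, comparison regions weighted to the members' classes of length and vehicle signal, and all regions. Members and comparison regions lie close together at each annotation, with 84.9% and 85.1% overlapping both a CpG island and a promoter, beside 35.7% of all regions.

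Most members were island promoters. A CpG island and a promoter were overlapped by 1111 members (84.9%), whose median length was 1818 bp and median vehicle average 28.6. The 36 members with an island and no promoter were close to these, at 1764 bp and 28.3. The 73 promoter members without an island were longer, at 2437 bp, and a little weaker with vehicle, at 27.1. The 89 members with neither were the longest, at a median of 2927 bp, with a vehicle average of 26.6 and a log2 difference of -2.06, beside -2.13 at island promoters. Among all members without a promoter, with or without an island, the strongest lay inside Ywhaz, which encodes a 14-3-3 adaptor protein. It lay 9557 bp past the gene start and overlapped an island, at 40.3 with vehicle and 7.78 with inhibitor. A region inside Foxn3, a forkhead repressor, 57735 bp past its start, also overlapped an island and had 35.8 and 7.935. A region with neither island nor assigned gene, chr5:137262942-137265511, had 36.6 and 7.57.

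The promoters at members were close in base composition to those of comparison regions. RefSeq windows of 300 bases, 250 before and 50 after a start, were found for 896 of 1109 members (80.8%) and 868 of 1049 comparison regions (82.7%) with a start within 1 kb. Median GC content was 62.7% in members, 62.3% in comparison regions and 52.7% over all 32851 windows, and the ratio of observed to expected CpG was 0.854, 0.852 and 0.384. Motifs were searched as exact letters on both strands. The SP/KLF core GGGCGG occurred in 69.5% of member, 70.5% of comparison and 35.7% of all windows, and the ETS motif CCGGAAG in 28.5%, 29.8% and 8.86%. The CCAAT box (CCAAT) was at the share of all promoters, with 36.6%, 37.3% and 37.4%, and the TATA box (TATAAA) was rarer than in all, with 5.58%, 5.99% and 13.6%.

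Most other motifs were rare in members. The NRF1 motif, of a regulator of mitochondrial genes, was found in 2.90% of member, 2.65% of comparison and 0.971% of all windows. The cAMP response element TGACGTCA was found in 5.80%, 7.37% and 1.79%, and its core TGACG, which counts every full element again, in 48.1%, 53.3% and 20.8%. The AP-1 motif TGACTCA was found in 2.23% of member, 4.49% of comparison and 5.20% of all windows. For the myeloid factors, the PU.1 motif GAGGAAGT stood at 3.79%, 3.92% and 3.20%, and the C/EBP motif TTGCGCAA at 0.223%, 0.691% and 0.183%. The interferon-stimulated response element stood at 3.35%, 3.92% and 3.44%, the NF-kB motif at 0.446%, 0.461% and 0.155%, and the E-box CACGTG at 12.6%, 10.9% and 7.15%. The YY1 motif stood at 2.34%, 2.30% and 0.633%, and the ZBTB33 palindrome at 1.90%, 2.30% and 0.466%. A match to letters is not a bound site.

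Among the strongest members with vehicle, Itm2b, a transmembrane protein processed by furin (chr14:73384330-73385909), had 48.1 with vehicle and 5.96 with inhibitor, a log2 difference of -2.82. Snx2, a sorting nexin of the retromer pathway, had 48.1 and 8.575. The region shared by Scand1 and Cnbd2 had 47.7 and 6.39. The start of each lay within 1 kb. Tia1, an RNA-binding protein of stress granules (chr6:86403812-86405169), had 46.2 and 6.50, and Smek1, a regulatory subunit of protein phosphatase 4, had 46.4 and 7.57. Tiparp, an ADP-ribosyltransferase induced by the aryl hydrocarbon receptor, had 45.2 and 9.16, and Rock1, a kinase of the actomyosin cytoskeleton, had 44.9 and 7.53. Baz2b, a bromodomain protein itself, had 44.1 and 9.30 at a region with no CpG island. Osbpl11, a lipid-binding protein, had 44.4 and 8.43, and Smu1, a splicing factor, had 43.9 and 7.15.

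At the lower end of the inhibitor signal, Arid2, a subunit of the PBAF chromatin remodeller, had 26.4 with vehicle and 2.545 with inhibitor, a log2 difference of -2.95. Its inhibitor peak was 4. A comparison region also assigned to Arid2, 360 bp away, had 26.7 and 4.925, with an inhibitor peak of 16. Ncoa1, a nuclear receptor coactivator that works with CBP and EP300, was the shortest member at 369 bp, with 26.75 and 2.10. Ndufa10, a subunit of respiratory complex I, had 30.5 and 3.37, and Eif3j1, of the translation initiation factor eIF3, had 29.5 and 3.25. At the other end of the log2 difference, Chmp2b, of the ESCRT-III membrane complex, had 26.6 and 9.14, and Cfl1, the actin-severing cofilin, had 25.4 and 8.56. Slbp, which binds the stem-loop of histone mRNA, had 27.9 and 9.20, and Sqrdl, a mitochondrial sulfide oxidase, had 28.5 and 9.38.

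Genes were grouped in lists, and a region counted for a list when the table assigned it to a gene of the list. Of the genes with any strong short region, 2086 of 4064 (51.3%) had a member. At genes of mitochondrial ribosomal proteins 17 of 24 strong short regions (70.8%) were members, where 60.7% of regions in the same classes of length and signal were. Mrpl14 had 36.2 with vehicle and 7.73 with inhibitor, and Mrpl36 had 33.1 and 5.22. For subunits of oxidative phosphorylation it was 20 of 34 (58.8%, beside 57.2% by class), among them Uqcrfs1, the Rieske protein of complex III, at 39.0 and 7.50. For cytosolic ribosomal proteins it was 18 of 34 (52.9%, beside 58.9%), with Rpl19 at 38.3 and 5.86. For translation factors it was 19 of 34 (55.9%, beside 54.7%), with Eif4h, a cofactor of the eIF4A helicase, at 36.9 and 5.31.

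Genes of RNA and protein handling and of the cell cycle had shares of 44.4% to 57.1%, on both sides of the background of 50.4%. Splicing and RNA-binding factors had 34 members of 74 regions (45.9%, beside 44.3% by class), with Rbm5 at 37.8 with vehicle and 4.91 with inhibitor. Genes of RNA polymerases and general transcription factors had 12 of 21 (57.1%, beside 54.0%), and small nucleolar RNA genes 14 of 26 (53.8%, beside 48.2%). Proteasome subunits had 11 of 24 (45.8%, beside 51.5%), with Psma3 at 38.3 and 7.38, and ubiquitin conjugation genes 17 of 33 (51.5%, beside 46.1%). Genes of mitosis and replication had 12 of 27 (44.4%, beside 51.0%), with Cdc45, a subunit of the replicative helicase complex, at 29.5 and 5.54. Zinc finger genes named Zfp had 29 of 65 (44.6%, beside 52.0%).

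Histone modifiers and readers had 15 members of 38 regions (39.5%, beside 43.4% by class), with Smarca5, the ISWI remodeller, at 30.4 with vehicle and 5.045 with inhibitor. Chd1, a remodeller of transcribed genes, had members at both sides of its start, at 30.2 and 6.00 upstream and at 30.1 and 6.74 downstream. Nuclear receptor coactivators and Mediator genes had 7 of 19 (36.8%, beside 54.5%), Med21 and Med25 among them. NF-kB and inflammatory genes had 10 of 30 (33.3%, beside 41.5%), a count that includes Zfp367 and Ikbkap, whose symbols match the list but which are not components of that pathway. JAK-STAT genes had 5 of 14 (35.7%, beside 37.7%), with Stat2, of the interferon pathway, at 25.3 and 5.46. AP-1, KLF and EGR factors had 6 of 15 (40.0%, beside 43.5%).

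Myeloid transcription factors had 11 members of 25 regions (44.0%, beside 40.6% by class). Cebpd, a C/EBP factor of the acute inflammatory response, had 30.7 with vehicle and 5.26 with inhibitor, and Irf1, an interferon-induced factor, had 27.8 and 6.08. Irf1 was also assigned a comparison region, 3291 bp from this member, at 27.9 and 6.69. Of the 19 myeloid factor genes with a strong short region, 5 had both a member and a comparison region. Interferon response and antigen presentation genes had 17 of 35 (48.6%, beside 40.6%), with Psmb10, a subunit of the immunoproteasome, at 32.7 and 6.33. Hypoxia and glycolysis genes had 8 of 14 (57.1%, beside 48.0%), with Higd1a at 42.9 and 7.76 and Ldha, lactate dehydrogenase A, at 30.4 and 6.765. Of the MDSC effector genes, Tgfb1 alone had members, 2 of the 3 strong short regions of that list, at 27.8 and 6.87 near its start and 25.1 and 5.97 farther downstream. A region 501 bp from the first of these was called with inhibitor, at 27.6 and 6.685. At 5282 bp it fell outside the length limit, and 2 genes of that list had a strong region of 5000 bp or more.

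All 14 neutrophil markers had a region in the series, and none of these was strong and short. Of 8 monocyte markers 7 had a region, and Nr4a1 was assigned 2 members, both farther than 1 kb from its start. Another of these 7 had a comparison region within 1 kb of its start. Of 10 macrophage and dendritic cell markers 8 had a region and none had a member. In that list 1 marker was assigned a comparison region, farther than 1 kb from its start, and 1 had a strong region of 5000 bp or more. Of 11 T, B and NK cell markers 4 had a region, and Cd3g was assigned a member that lies at the start of Ube4a. Of 9 stromal and endothelial markers 3 had a region, with no member.

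**Figure D4:**
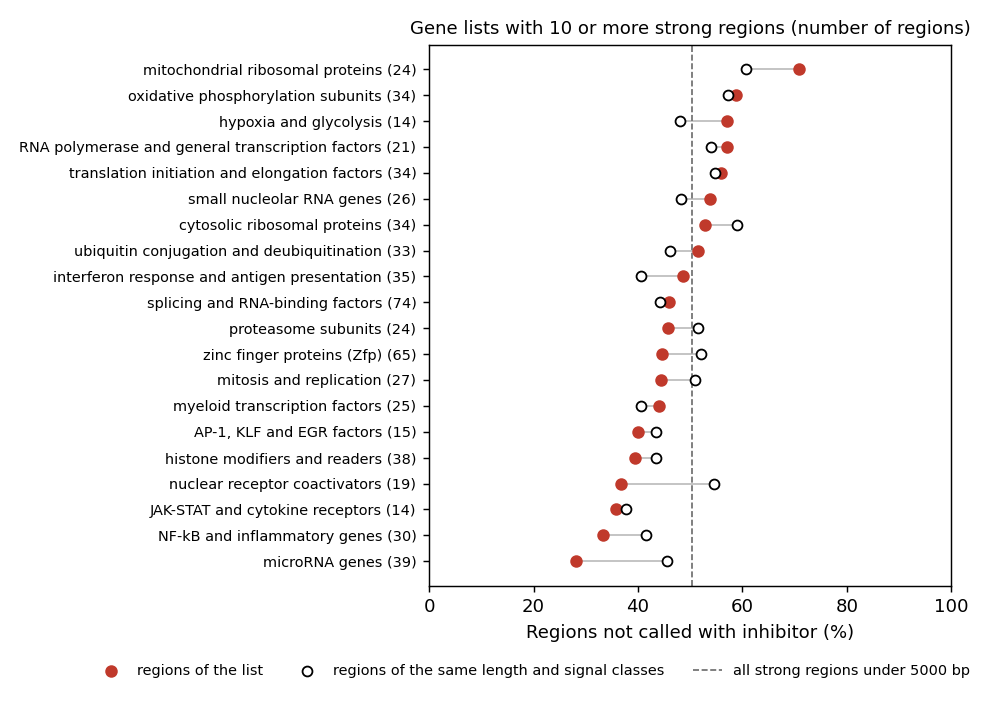
Share of strong short regions not called with inhibitor (percent) for each gene list with 10 or more such regions (red), and for all regions of the same length and signal classes (open circles). The dashed line is the share over all strong regions under 5000 bp, 50.4%, and lists run from 70.8% at mitochondrial ribosomal protein genes to 28.2% at microRNA genes.

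MicroRNA genes had the smallest share of any list with 10 or more regions, with 11 members of 39 strong short regions (28.2%, beside 45.5% by class). The 11 regions were assigned to 12 microRNA genes, of which 3 had the member within 1 kb of their start. Of 38 microRNA genes with a comparison region, 6 had it within 1 kb. Strong regions of 5000 bp or more, outside the length limit, were assigned to 16 microRNA genes. Mature sequences in RefSeq (GRCm38.p6) were found for 10 of the 12. Those shown carry the seed, bases 2 to 8, in capitals, and were chosen because the let-7 genes stand on both sides of the signal limit, miR-186 lies near a member of very low inhibitor signal, and miR-141 and miR-200c share 1 region.
let-7i-5p: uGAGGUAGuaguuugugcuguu
let-7a-5p: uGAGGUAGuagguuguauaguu
let-7f-5p: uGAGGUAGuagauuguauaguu
let-7d-5p: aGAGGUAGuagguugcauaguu
miR-186-5p: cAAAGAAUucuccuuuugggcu
miR-141-3p: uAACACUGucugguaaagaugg
miR-200c-3p: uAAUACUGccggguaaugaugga
The 4 let-7 sequences have the seed GAGGUAG, and let-7 microRNAs repress growth-promoting mRNAs in many tissues. The member at the let-7i gene had 26.4 with vehicle and 2.37 with inhibitor, a log2 difference of -3.02. A region assigned to the let-7a-1, let-7f-1 and let-7d genes had 24.983 and 7.155, a difference of -1.67, and fell just outside the limit. The member at Zranb2, a splicing factor gene, was also assigned to miR-186, at -9727 bp from the start of that gene, and had 40.2 and 4.21. The seeds of miR-141 and miR-200c differ, and the member assigned to both genes had 26.9 and 6.39. It lay 5573 bp from the start of the miR-141 gene and 5978 bp from that of the miR-200c gene.

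A member and a comparison region could be assigned to the same gene. There were 176 genes with both a member and a comparison region, 8.44% of genes with a member and 8.17% of those with a comparison region, and the member had the lower log2 difference in 113. These are counts of genes and not of pairs of regions, since Jmjd6, Srsf2, Mfsd11 and Mettl23 share 1 pair. The 2 regions could also lie far apart, with a gap of 1068141 bp at Igh. The strongest member among these genes was that of Tia1, at its start, with a comparison region 34417 bp farther on at 39.1 with vehicle and 7.30 with inhibitor. In 7 genes both lay within 1 kb of the start. Nfkb1, which encodes the p105 and p50 NF-kB subunits, had its member before the start at 26.4 and 4.94 and the comparison region after it at 37.8 and 7.18, with 107 bp between them. Arf6, a small GTPase of membrane traffic, had the same inhibitor average in both, 6.64, from a vehicle average of 38.0 in the member and 29.2 in the comparison region. Mef2a, a MADS-box transcription factor, had an inhibitor average of 5.97 in the member and 6.31 in the comparison region, with log2 differences of -2.30 and -2.08.

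Over all pairs of a member and a region called with inhibitor no more than 1000 bp away, 38 in number and chosen for a look after values were seen, the member was the stronger with vehicle in 17. In 11 pairs the neighbour was below the vehicle limit of 25, so that the rule fixed this order. Of the 22 pairs whose neighbour is a comparison region, the member was the stronger with vehicle in 4. Over the 38 pairs its inhibitor average was the lower in 35, its log2 difference the lower in 31 and its length the shorter in 31. The median log2 difference was -2.17 in members and -1.77 in their neighbours, and the median gap was 142 bp. In 19 pairs the regions lay on opposite sides of a start, with the member upstream in 10 and downstream in 9. Zfx, a zinc finger factor on the X chromosome, had 35.1 with vehicle and 4.85 with inhibitor in the member and 22.8 and 6.83 in the neighbour. The limit on vehicle signal and the call in the inhibitor library chose these pairs, so these orders, that of length too, are descriptions.

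**Figure D5:**
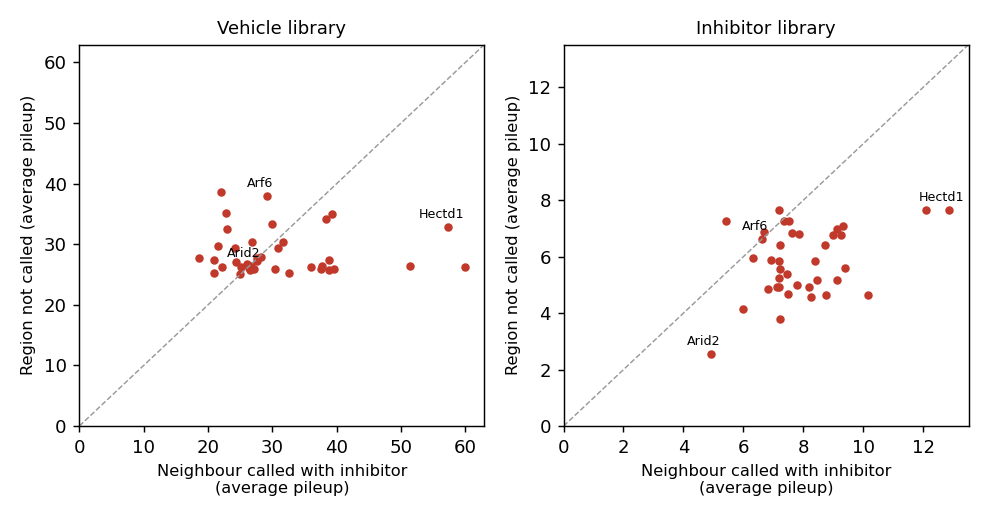
Average fragment pileup of each member (y axis) against that of its neighbour called with inhibitor (x axis) in 38 pairs no more than 1000 bp apart, in the vehicle library (left) and the inhibitor library (right), with the line of equality. Members lie above the line in 17 pairs with vehicle, in 11 of which the neighbour is below the limit of 25 set for members, and below the line in 35 pairs with inhibitor.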

How the data were processed

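H3K27ac chromatin immunoprecipitation was compared between 1 vehicle and 1 inhibitor library. Per the labels' protocols, chromatin was fixed with 1% formaldehyde, Drosophila chromatin was added as a spike-in, and paired reads of 150 bp were sequenced. The submitters' processing notes list BWA and SICER without versions, and the builds hg19 and dm3. The deposited signal is fragment pileup per region, given by the authors as an average and a peak; the sources used here do not say if a spike-in factor was applied, on which all differences between libraries depend. Multiplied by the count of 32 bp bins in a region, or by that count less 1, the average came out whole for 94.8% of members with vehicle and 42.1% with inhibitor, with the rounding of the deposited averages as tolerance. Whether empty bins enter the average is not stated. Whether an interval was called in a library was taken as deposited. Coordinates are printed as deposited and lie on GRCm38. Of 1990 pairs of a member and a gene with a current symbol, 99.9% were on the same chromosome. In 90.1% the deposited distance, taken in either direction, led to within 1 kb of either end of the gene.

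Differences used a pseudocount of 1, which understates those of weak regions. Standardised values weight comparison regions to the members' classes of length and vehicle signal. For shares, that step was tested on simulated data in which the share depended on length and not on vehicle signal. The weighting of medians was not simulated. Other limits of signal and length, peak signal, other pseudocounts, recentring and stricter gene assignment were tried as alternatives. With 1 library per group no p-value is given, and with no counts the depth is unknown. The members, the 26 gene lists and the tests were chosen with earlier results of these data known. The regions named are the 10 strongest members, the 10 lowest and 5 highest log2 differences, the longest, the shortest and the strongest without a promoter, those beside each limit, 3 per list, and those with the highest or lowest inhibitor signal; not all are printed, and 1 gene is not reported here. Python 3.11.15, pandas 2.3.3 and numpy 2.4.6 were used.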

Additional observations from a re-analysis of the deposited data

How the results depend on the processing

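With 1 library per treatment, neither biological nor technical error can be given, and unknown depth and spike-in scaling leave the size of every difference uncertain. The number of members was 3423 with a vehicle limit of 20 and 440 with 30, and the share not called was 67.6% and 32.8%. It was 54.6% with a length limit of 3000 bp and 47.5% with none. The median log2 difference of members and of comparison regions was -2.304 and -2.056 by peak signal, -2.294 and -2.101 with no pseudocount, and -2.235 and -2.037 with a limit of 30. Recentring on the median of all regions, -1.61, gave -0.509 and -0.363, with 35 members and 0.371% of all regions at least 2-fold lower. With weak regions left out, 96.9% of regions were at least 2-fold lower. The promoter share of members and comparison regions was 84.7% and 81.4% by a start within 1 kb, 94.5% and 93.7% with a limit of 30, and 93.0% and 94.1% with 3000 bp. The CpG island share was 93.8% and 92.7% at promoters, 93.6% and 91.1% with a limit of 30, and 91.6% and 93.4% with 3000 bp. With a limit of 30, the median length of members was 1811.5 bp and their peak to average ratio 2.56. That ratio in comparison regions was 2.72 weighted by length and 2.70 by length and signal, the latter added after seeing the data. List genes with a member, summed over lists, numbered 698 with a limit of 20, and those with a comparison region 209 with a start within 1 kb. Of 104 values for single lists 49 moved, and of 60 for motifs 11 did. The cause of these moves was not tested. No paired analysis was possible because there is 1 library per group and no result comes from a test.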

Other observations

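The share of strong short regions without a call in the inhibitor library was 50.4% over all chromosomes. The lowest and highest of the 20 chromosomes were 41.8% on chromosome 11 (100 of 239 regions) and 60.5% on chromosome 4 (98 of 162 regions). The X chromosome held 12 members of 23 such regions (52.2%), with a median log2 difference of -1.97.

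Below the signal limit, 703 of 19443 regions (3.62%) were called in both libraries. Their median average was 21.4 with vehicle and 6.38 with inhibitor, the latter above the 6.02 of the members. Their median length was 2587 bp, and 68.8% of them were longer than the median member. These regions, too, hold intervals called in both libraries, which can lengthen them.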
